A study of Mus musculus with 8 samples.

Results

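The genes described here are those of the cytosolic ribosomal proteins, the proteins that build the large and small subunits of the ribosome in the cytosol. They were taken by symbol: Rpl or Rps followed by a number and at most the letter a, l or x, together with Rplp0, Rplp1, Rplp2 and Rpsa. By this rule 79 of the 15867 genes in the table were members, 47 of the large and 32 of the small subunit. Another 33 rows whose symbol starts with Rpl or Rps lay outside the rule, among them pseudogenes and the kinases of ribosomal protein S6. In the GENCODE M21 annotation of mm10, 78 members are protein-coding and Rps4l is a transcribed processed pseudogene. The members lie on 19 chromosomes, with 14 of them on chromosome 7 and 4 on the X chromosome.

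RNA came from macrophages of the adipose tissue of mice on a high-fat diet for 20 weeks, selected by F4/80, a surface protein of mouse macrophages encoded by Adgre1. The control group (4 libraries) was Mirc11fl/fl Mirc22fl/fl Lyz2+/+, and the knockout group (4 libraries) was Mirc11fl/fl Mirc22fl/fl Lyz2Cre/Cre. Mirc11 and Mirc22 are a pair of microRNA clusters that each give rise to a miR-23, a miR-27 and a miR-24, and the comparison asks which transcripts differ when they are deleted in myeloid cells. All mice carried floxed alleles of both clusters. Cre is expressed from the Lyz2 locus on both chromosomes in the knockout group, so that Lyz2, a lysozyme gene, is itself interrupted there. No group carried Cre with intact clusters, so loss of the clusters, presence of Cre and loss of Lyz2 cannot be told apart. The labels call the samples biological replicates without saying whether each is 1 mouse, and they name no batch.

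Each library held between 31789395 and 46621080 reads, recovered from the deposited normalized counts. Lyz2 checked the labels: its normalized counts were 182286, 156727, 159627 and 204853 in controls 1 to 4 and 273, 174, 201 and 184 in knockouts 1 to 4. Adgre1, the marker used for selection, was abundant in all libraries (37440 to 54126). Markers of other cells were measured in both groups. Every measured gene holds at least 1 read in each library, so a value above 0 does not by itself show detection. Of 8 listed neutrophil markers 4 were measured, and of 8 listed dendritic cell markers 7. All 10 B cell, 12 endothelial and mural, 10 fibroblast, 8 adipocyte and 7 measured dendritic cell markers had higher knockout means, and none passed the test. Their summed counts were 11006 to 25549 in controls and 14108 to 39879 in knockouts for B cells. In the same order they were 96307 to 165615 and 156306 to 214947 for endothelial and mural cells. For fibroblasts and preadipocytes they were 176417 to 286378 and 216241 to 308969. For adipocytes they were 46133 to 67165 and 57179 to 94557, and for dendritic cells 1027 to 1691 and 2071 to 2292. Of 14 T and NK cell markers 13 had higher knockout means and none passed the test, while their summed counts were lower in the knockouts (4867 to 5090, against 5216 to 6699 in controls). Of 4 measured neutrophil markers 3 had higher knockout means and none passed. All 10 general macrophage markers had lower knockout means, and 6 of them passed the test, Lyz2 among them. Their summed counts, Lyz2 included, were 389766 to 502869 in controls and 184860 to 196466 in knockouts. In every knockout library the fibroblast sum was thus the larger. Among the 15862 genes tested, 377 were called lower. The part of these cell types in the ribosomal protein values was not tested. In bulk samples, fewer cells of a type and less RNA per cell cannot be told apart.

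A ribosome holds 1 copy of nearly every ribosomal protein, and cells make these proteins in matched amounts. Their mRNAs are short, abundant and long-lived. In mammals most of them begin with a run of pyrimidines at the very 5′ end, the terminal oligopyrimidine (TOP) motif, through which mTORC1 controls their translation more than their amount. Macrophages, which synthesize and secrete much protein, express most of the set at high levels. RNA levels, as measured here, do not report that translational control.

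The start windows were searched for pyrimidine runs. RefSeq start windows on GRCm38.p6 were found for 58 of the 79 members (69 windows, as some genes have more than 1 start). The sequences here are the 15 bases before and 15 from each annotated start. They come from a chosen set of members, some with and some without the run, and do not represent the share with a run over all windows. Capitals mark the longest unbroken run of C and T that reaches to within 10 bases of the start where it is at least 6 long.
Rps26 (chr10:128626492-128626521, minus strand): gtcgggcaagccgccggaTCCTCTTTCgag
Rps15a (chr7:118116133-118116162, minus strand): CTCTCTTTCTgccatcttccctcgccggtg
Rpl35 (chr2:39005117-39005146, minus strand): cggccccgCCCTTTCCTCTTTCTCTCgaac
Rps6 (chr4:86857353-86857382, minus strand): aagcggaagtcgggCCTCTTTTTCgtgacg
Rps27 (chr3:90213634-90213663, minus strand): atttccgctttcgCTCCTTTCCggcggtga
Rpl13a (chr7:45128731-45128760, minus strand): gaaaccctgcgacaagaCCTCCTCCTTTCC
Rps27l (chr9:66946071-66946100, plus strand): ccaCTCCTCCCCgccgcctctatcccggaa
Rpl10 (chrX:74270801-74270830, plus strand): gttgttacagtggaagataggccgcctata
Rplp0 (chr5:115559452-115559481, plus strand): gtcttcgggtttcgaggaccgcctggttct
Rps4x (chrX:102189377-102189406, minus strand): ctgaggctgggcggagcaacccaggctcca

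A run of at least 6 pyrimidines within 10 bases of the start was present in 38 of the members' 69 windows (55.1%), against 28.8% of the 15184 windows of all genes in the table. The letters CTTTCC on the transcribed strand stood within 10 bases of the start in 9 windows (13.0%), against 0.810% of all windows, and on the opposite strand in 0 windows, against 0.705%. Anywhere in the 300-base window and on either strand, CTTTCC was found in 50.7% of members' windows and 26.5% of all windows. The CTTTCC matches overlap the pyrimidine runs, and a match is a description of the letters only. Rpl10, Rplp0 and Rps4x, whose mRNAs belong to the same family, have no such run at the start RefSeq gives.

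None of the 79 ribosomal protein genes differed between knockout and control macrophages at an adjusted p under 0.05 (limma, Benjamini-Hochberg over all 15862 genes tested), where 573 genes did (3.61%). Of the 573, 34.2% were higher in the knockout group, a share that became 50.1% with each library scaled to the same total. All 79 members passed the filter on low values. Limma called 0 members, and so did edgeR (0 of 79, against 3.62% of all genes) and DESeq2 (0 of 78 with an adjusted p, against 10.9% of all genes). The authors' deposited DESeq2 table held 0 of 78 members under 0.05, against 10.9% of all genes. These are the same counts as in the DESeq2 fit here, so they are not a separate result. At an unadjusted p under 0.05 limma gave 6 members, against 21.2% of all genes: 5 were higher, against 10.8%, and 1 lower, against 10.4%. The count of higher members depended on the scaling. It was 27 with each library scaled to the same total, 33 with quantile normalization and 28 with equal totals of the other genes. Each had 1 lower and 0 called after adjustment. Under these scalings 3379, 3179 and 3417 of all 15862 genes had an unadjusted limma p under 0.05 in either direction. The share of higher genes alone was not computed there.

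The members' differences were mostly of one sign. The mean was higher in the knockout group for 68 members and lower for 11, against 50.5% higher over all genes. The median log2 difference was 0.05 over the members (a fold of 1.04) and 0.00 over all genes tested. With each library scaled to the same total the members' median was 0.11 and that of all genes 0.06, with quantile normalization 0.12 and -0.01, and with equal totals of the other genes 0.11 and 0.06; 78 of 79 members were higher under each. By subunit it was 0.05 for the large (43 higher, 4 lower) and 0.06 for the small (25 higher, 7 lower). Among the 73 members with a mean above 2000 normalized counts the differences ran from -0.25 to 0.15, with all 95% intervals inside -0.45 to 0.47, that is, folds of 0.730 to 1.38. The median standard error of a single member was 0.06; no error was computed for the median over members, and no test was run on it. Without control 3 the median difference was 0.03 with 55 members higher, and without control 4 it was 0.08 with 74 higher.

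**Figure D1:**
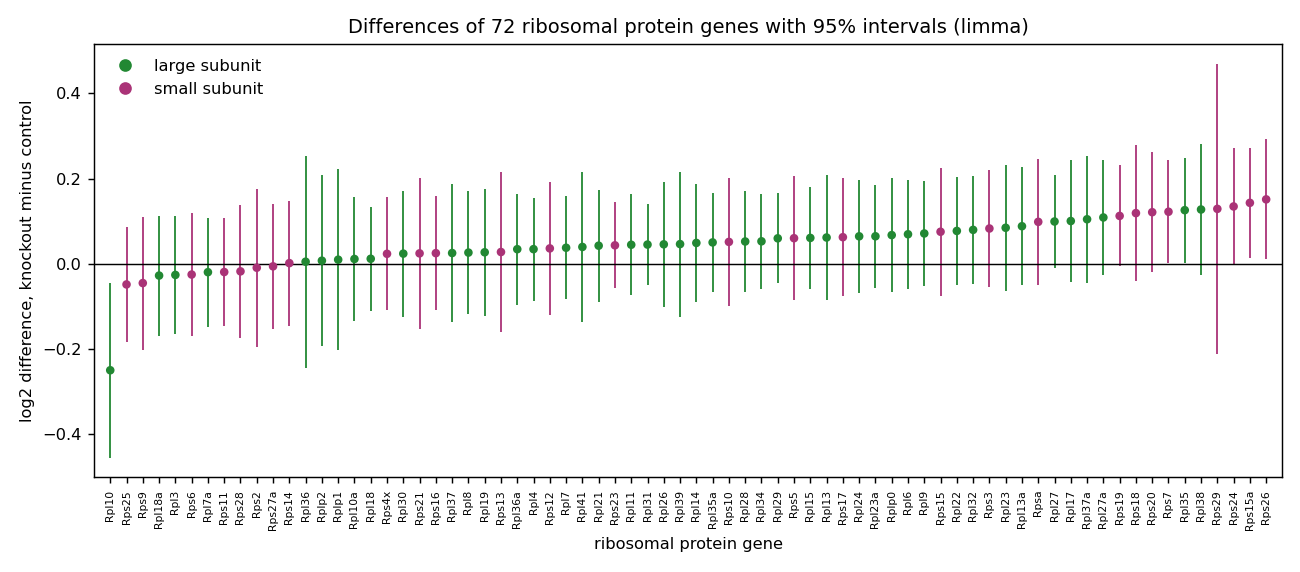
Log2 difference (knockout minus control, y axis) of 72 ribosomal protein genes with a mean above 2000 normalized counts, ordered from lowest to highest along the x axis. Points are limma estimates and lines their 95% intervals, green for the large and purple for the small subunit. The points lie between -0.25 (Rpl10) and 0.15 (Rps26), and the intervals between -0.45 (Rpl10) and 0.47 (Rps29).

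The summed ribosomal protein counts took 2.75%, 2.85%, 2.68% and 2.87% of all counts in controls 1 to 4. In knockouts 1 to 4 they took 3.05%, 3.05%, 3.04% and 2.84%. Knockouts 1, 2 and 3 were thus above every control library, and knockout 4 lay among the controls. The means were 2.79% ± 0.0874 (SD, n = 4) and 3.00% ± 0.104 (SD, n = 4), a difference of 0.207 percentage points. With each library left out in turn that difference ran from 0.172 to 0.259. The counting error behind each share is far smaller, since the 95% Wilson intervals are at most 0.0120 percentage points wide; they cover counting error only. No test was run on this sum.

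The share depends on its denominator. The members' summed normalized counts, which use the authors' scaling in place of the library total, were 1050849, 1052563, 995662 and 1118782 in controls 1 to 4 and 1113910, 1065344, 1118005 and 1050945 in knockouts 1 to 4. On that scale the groups overlapped throughout, and the knockout mean was 1.03 times the control mean, against 1.07 for the share. The 50 most abundant other genes took 16.2% ± 0.897 (SD, n = 4) of the control libraries and 15.1% ± 0.203 (SD, n = 4) of the knockout libraries, without overlap. With these left out of the total, the ribosomal share was 3.33% in controls and 3.53% in knockouts, a ratio of 1.06. Their part in the difference was otherwise not tested.

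The ratio between the subunits varied little. Large-subunit counts exceeded small-subunit counts by a ratio of 1.42, 1.41, 1.41 and 1.41 in controls 1 to 4 and 1.39, 1.42, 1.40 and 1.40 in knockouts 1 to 4. The control mean was 1.41 ± 0.00225 (SD, n = 4) and the knockout mean 1.40 ± 0.0151 (SD, n = 4). The knockout libraries fell on both sides of the controls. Their spread was wider, with knockout 1 the lowest and knockout 2 the highest of all 8.

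**Figure D2:**
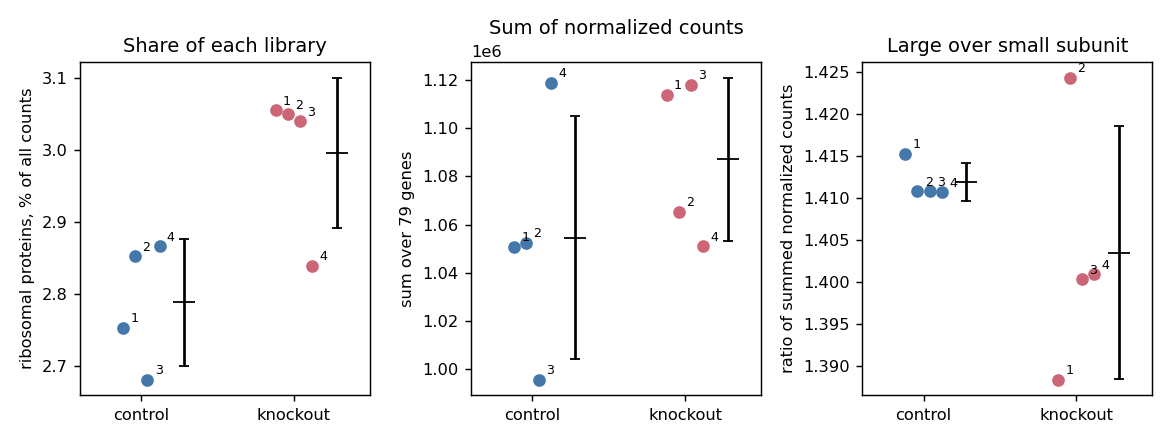
Ribosomal proteins per library: their share of all counts in percent (left), the sum of their normalized counts (middle) and the ratio of large- to small-subunit counts (right), by group on the x axis. Points are libraries with their replicate number and black marks the group mean ± SD (n = 4); knockout 4 (2.84%) lies apart from the other 3 knockouts (3.04% to 3.05%), and the y axes do not start at 0.

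Rpl10 was the member with the smallest p and the only one with a lower knockout mean at an unadjusted p under 0.05. Rpl10 (ENSMUSG00000008682.13, chrX:74270812-74273135, plus strand) joins the large subunit in a last step of its maturation in the cytoplasm and lies near the peptidyl transferase centre. Its normalized counts were 10167, 7990, 8562 and 10271 in controls 1 to 4 and 7755, 7150, 8254 and 7812 in knockouts 1 to 4. Controls 1 and 4 stood high, while controls 2 and 3 lay within or near the knockout range, so the groups overlapped. The log2 difference was -0.25 (SE 0.09, 95% interval -0.45 to -0.04, adjusted p = 0.165 by limma). In the authors' deposited table its adjusted p was 0.0751, the smallest of any member.

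The other members with an unadjusted p under 0.05 had higher knockout means. Rps26, a small-subunit protein at the mRNA exit channel and a Diamond-Blackfan anaemia gene in humans, had 10750, 10142, 9172 and 10580 normalized counts in controls 1 to 4 and 10852, 11334, 11840 and 11048 in knockouts 1 to 4. All 4 knockouts were above all 4 controls, by a narrow gap between control 1 and knockout 1. Its log2 difference was 0.15 (SE 0.06, adjusted p = 0.207 by limma), the highest among members above 2000 normalized counts. Rps15a, also of the small subunit, had 8150, 7715, 7408 and 8531 normalized counts in controls 1 to 4 and 9024, 8589, 9022 and 8448 in knockouts 1 to 4. Here control 4 lay above knockout 4, and the log2 difference was 0.14 (SE 0.06, adjusted p = 0.197 by limma).

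Rpl35, which lies at the exit of the peptide tunnel of the large subunit, had 9920, 10289, 8966 and 10038 normalized counts in controls 1 to 4 and 10456, 10674, 10805 and 10801 in knockouts 1 to 4 (log2 difference 0.13, limma adjusted p = 0.226). Its knockout values were close to each other and all above the controls. Rps7, another small-subunit gene of Diamond-Blackfan anaemia in humans, had 12510 ± 601 (SD, n = 4) and 13608 ± 376 (SD, n = 4), a log2 difference of 0.12 (limma adjusted p = 0.230).

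Groups did not overlap for 6 members, all higher in the knockout group (Rps26, Rpl35, Rps7, Rps24, Rpl27 and Rpl31), and for 0 members lower. Over all genes 5.52% were higher without overlap and 8.21% lower, 13.7% in all. The 6 of 79 are near the background for higher genes, and the 0 of 79 lower stand below that for lower genes, a difference that was not tested. Rps24, a small-subunit gene mutated in Diamond-Blackfan anaemia in humans, had 14331 ± 942 (SD, n = 4) normalized counts in controls and 15714 ± 511 (SD, n = 4) in knockouts (log2 difference 0.13, limma adjusted p = 0.246). Rpl27 of the large subunit had 4687 ± 241 (SD, n = 4) and 5017 ± 44.3 (SD, n = 4), a log2 difference of 0.10 (limma adjusted p = 0.279). Rpl31, named after its values were seen, was the steadiest member, with a coefficient of variation of 2.38% over the 8 libraries. It had 8125, 8132, 7846 and 8065 in controls 1 to 4 and 8534, 8188, 8191 and 8280 in knockouts 1 to 4 (log2 difference 0.05).

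The other members with low p-values were Rps19, the gene most often mutated in human Diamond-Blackfan anaemia, and Rps20, a small-subunit protein of the head. Rps19 had 10388 ± 363 (SD, n = 4) normalized counts in controls and 11233 ± 497 (SD, n = 4) in knockouts (log2 difference 0.11, limma adjusted p = 0.260). Rps20 had 6633 ± 444 (SD, n = 4) and 7209 ± 356 (SD, n = 4), a log2 difference of 0.12 (limma adjusted p = 0.302). In both the group ranges overlapped.

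None of the most abundant members passed the test. Rps2, at the entry of the mRNA channel, was the highest member, with 33152, 33802, 30463 and 32103 normalized counts in controls 1 to 4 and 33533, 27791, 34513 and 33218 in knockouts 1 to 4. Knockout 2 was the lowest of all 8, and the log2 difference of -0.01 (SE 0.08) had the opposite sign when libraries were scaled to the same total (0.05). Rpl3, which lies close to the peptidyl transferase centre, had 27521 ± 1500 (SD, n = 4) and 27008 ± 831 (SD, n = 4), a log2 difference of -0.03 that also turned positive under that scaling (0.03). Rpl13a, which in human monocytes can leave the ribosome to silence inflammatory mRNAs, had 26959 ± 1645 (SD, n = 4) and 28621 ± 360 (SD, n = 4), a log2 difference of 0.09 (limma adjusted p = 0.453).

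The stalk of the large subunit, which recruits translation factors, is built from Rplp0, Rplp1 and Rplp2. Rplp0 had 27185 ± 1167 normalized counts (SD, n = 4) in controls and 28479 ± 991 (SD, n = 4) in knockouts (log2 difference 0.07, limma adjusted p = 0.557). Rplp1 had 25106, 25279, 25934 and 30643 in controls 1 to 4 and 30269, 25406, 27831 and 24212 in knockouts 1 to 4. Rplp2 had 11422, 11904, 11714 and 14267 in controls 1 to 4 and 13739, 11665, 12727 and 11371 in knockouts 1 to 4. Control 4 and knockout 1 were high for both Rplp1 and Rplp2, whose log2 differences of 0.01 each were far inside their standard errors of 0.09. Rps29, a short small-subunit gene named after its values were seen, had the same pair of high libraries, with 10573, 12185, 12261 and 16711 in controls 1 to 4 and 16606, 13939, 14217 and 11470 in knockouts 1 to 4. These 2 libraries also had the highest summed B cell markers, 25549 in control 4 and 39879 in knockout 1 against 11006 to 16603 in the other 6. The part of those cells in the values was not tested.

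**Figure D3:**
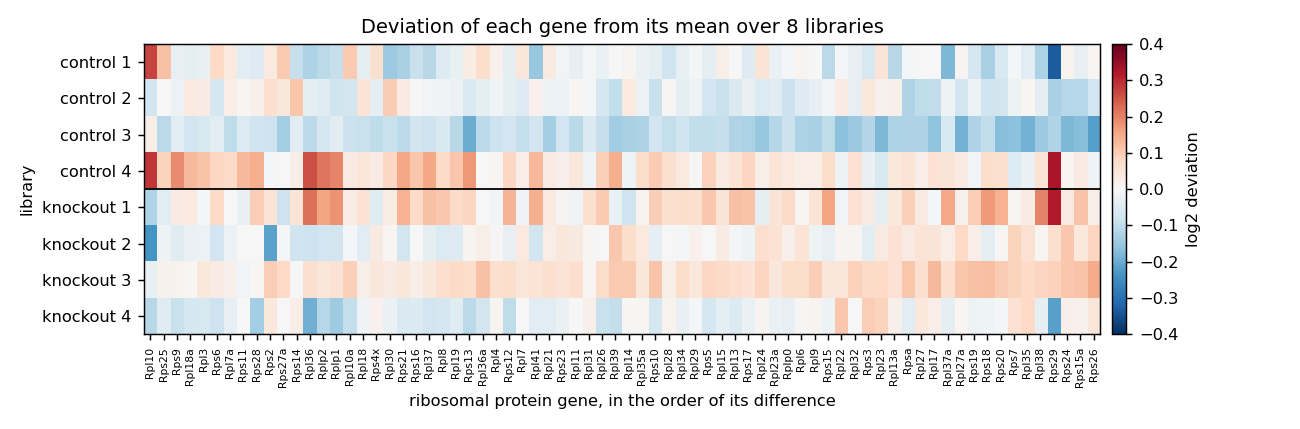
Log2 deviation of 72 ribosomal protein genes with a mean above 2000 normalized counts (columns, in the order of their difference) from their own mean over the 8 libraries (rows, controls above the line). Red is above and blue below the mean, on a scale of log2(normalized count + 1); control 3 is low for most genes (median deviation -0.10), and control 4 and knockout 1 are high for Rpl36, Rplp1, Rplp2 and Rps29.

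Many members were lowest or highest in the same libraries. The counts that follow were not made for other genes, so a trait of the members cannot be told from one of the library. Control 3 was the lowest of the 8 libraries for 52 members, control 1 for 12 and knockout 4 for 10. Knockout 3 was the highest for 26, control 4 for 21 and knockout 1 for 17. The members' median log2 deviation was -0.03, -0.02, -0.10 and 0.05 in controls 1 to 4 and 0.06, 0.01, 0.07 and -0.03 in knockouts 1 to 4. The difference between groups was thus smaller than the range within the control group. Control 4 and knockout 1 were higher for the short members (median deviation 0.06 and 0.08 for the 40 with transcripts of at most 681 bases) than for the 39 longer ones (0.04 and 0.03).

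Between libraries the members were steady. Their median coefficient of variation over all 8 libraries was 5.54%, against 9.79% for the 907 other genes within 2-fold of the members' median level. Above 2000 normalized counts the highest was 16.9% (Rps29). Only the low members varied more, up to 65.9% for Rpl39l.

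Per kilobase of transcript, most members lay within 2-fold of one level, and other genes were not compared. The level depends on the transcript length used, and members with longer principal transcripts, such as Rps20 at 3706 bases, were left out. Among the 73 members with a principal transcript of at most 1500 bases the median was 19337 normalized counts per kilobase, and 59 lay within 2-fold of it. Rplp1 was highest at 53777 per kilobase (2.78 times the median), followed by Rps14 at 44133 and Rps12 at 43132. Rplp2, which like Rplp1 is present in more than 1 copy per ribosome, stood at 29337 per kilobase and Rplp0 at 20495. There were 11 members below the 2-fold range, and 7 of these have a copy row in the table that shares at least 20% of their 31-base words. Of all 79 members 29 have such a row. Because the notes name Salmon, which divides reads among like sequences, the level of any member with a copy row is uncertain, inside the range or below it.

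Ribosomal protein genes have left many processed copies in the mouse genome. All 79 members shared some 31-base words with another annotated gene (median 61.4% of a member's words), and 54 shared at least 50%. In the table, 29 members had 37 rows of copies that share at least 20% of their words. Only rows outside the member set were counted, if annotated as pseudogenes or with a symbol starting with Rpl or Rps. Rplp2 and Rpl13a had no such row, but shared 76.5% and 58.2% of their words with other genes in the table. For 6 members most of the summed count stood in the copy rows: 97.4% for Rps27, 95.2% for Rpl5, 92.5% for Rpl12, 63.9% for Rpl10, 62.2% for Rpl27a and 59.5% for Rps23. Copies added 0.307% to the mean control share and 0.335% to the mean knockout share, and the sum with copies was 3.10% and 3.33%, a ratio of 1.08.

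Rps6, the small-subunit protein that S6 kinases phosphorylate, shares its coding sequence with another row. Its processed pseudogene Rps6-ps4 on chromosome 2 has the same 750 coding bases as Rps6 on chromosome 4, with 0 differences. The first 60 coding bases of each, from GENCODE M21 transcripts, show that reads inside them cannot be told apart.
Rps6: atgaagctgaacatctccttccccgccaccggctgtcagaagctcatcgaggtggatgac
Rps6-ps4: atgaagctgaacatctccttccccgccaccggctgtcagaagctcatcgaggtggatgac

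Rps6-ps4 stood at 1593 normalized counts in control 2 and at 1 read, the lowest value that the table gives to any gene, in controls 1, 3 and 4. In knockouts 1 to 4 it stood at 1 read, 1556, 835 and 1400. Rps6 itself had 18192, 16390, 16702 and 18204 in controls 1 to 4 and 18131, 16325, 17601 and 16229 in knockouts 1 to 4. Rps6 was among its lower values in control 2, knockout 2 and knockout 4, where the copy held most. Summed, the pair varied less (coefficient of variation 3.01%) than Rps6 alone (5.21%), and the log2 difference went from -0.03 to 0.02.

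Rps27, a zinc-finger protein of the small subunit, was listed at 123, 400, 136 and 184 normalized counts in controls 1 to 4 and 314, 358, 168 and 185 in knockouts 1 to 4. Its retrogene Rps27rt on chromosome 9, with the same 255 coding bases, held 8340, 8374, 8158 and 10322 in controls 1 to 4 and 9081, 8920, 9000 and 8261 in knockouts 1 to 4. The log2 difference of Rps27 alone was 0.37 (SE 0.39), and that of the sum 0.02 (SE 0.08, limma adjusted p = 0.938). Rps27 shares 98.7% of its words with Rps27rt, so its own low count says little about the gene.

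Rpl5, which binds the ribosomal RNA of the central protuberance and can hold the p53 ligase Mdm2, was listed at 1112, 779, 890 and 850 in controls 1 to 4 and 878, 1092, 999 and 994 in knockouts 1 to 4. The row of its copy Gm15500 on chromosome 7, identical over 894 coding bases, held 17067 to 20079. Summed, the log2 difference was 0.09 (SE 0.06, limma adjusted p = 0.369) and the coefficient of variation fell from 12.5% to 4.86%. Rpl12, on the stalk base, had 1335 ± 64.5 (SD, n = 4) and 1382 ± 57.1 (SD, n = 4), while its copy Gm10275 held 15204 to 18023.

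The lower value of Rpl10 was likewise that of 1 row. Rpl10-ps3, a protein-coding copy on chromosome 9 with the same 645 coding bases, held 14939 ± 1504 (SD, n = 4) normalized counts in controls and 15168 ± 663 (SD, n = 4) in knockouts. The sums were 26519, 22074, 21826 and 26329 in controls 1 to 4 and 22621, 22915, 23917 and 22189 in knockouts 1 to 4. Controls 1 and 4 stayed above all knockouts and controls 2 and 3 were below them. The log2 difference of the sum was -0.07 (SE 0.08, limma adjusted p = 0.655). Summing with copies lowered the variation of 16 of the 29 members concerned, left 0 members called and gave a median difference of 0.05 over the 79.

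**Figure D4:**
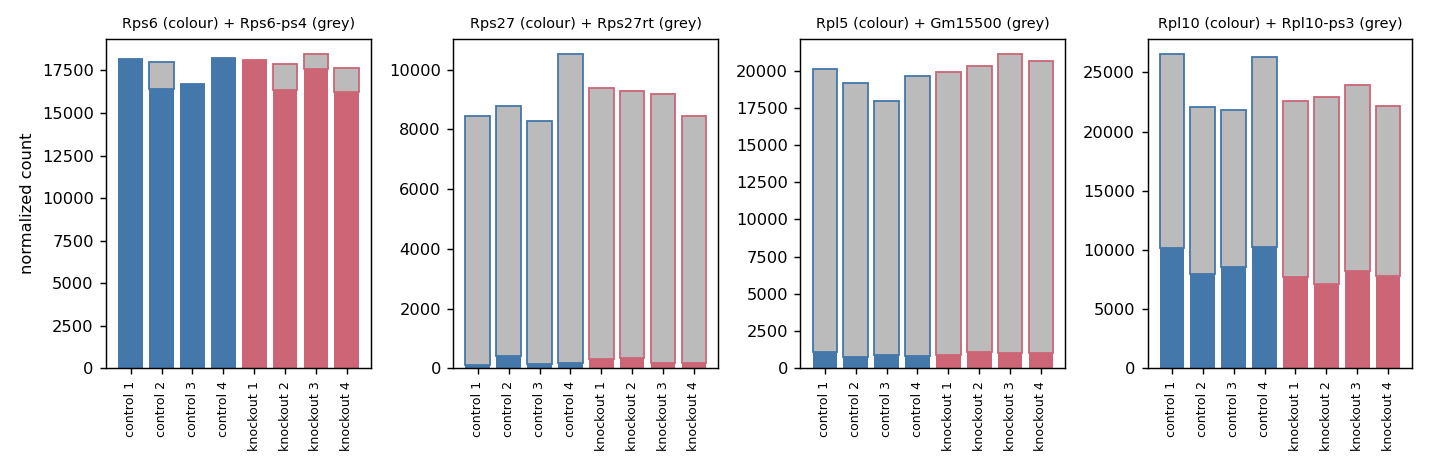
Normalized counts (y axis, from 0) of 4 ribosomal protein genes (colour, blue for controls and red for knockouts) with the row of a copy of identical coding sequence stacked on top (grey), per library on the x axis. Rps6-ps4 is visible in 4 libraries, Rps27rt and Gm15500 hold nearly all of their sums, and the Rpl10 sum is highest in controls 1 and 4.

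Members that are paralogues or special forms did not pass the test either. Rps27l, a paralogue of Rps27 that p53 induces, had 1998, 1761, 1555 and 1592 normalized counts in controls 1 to 4 and 1557, 1846, 1910 and 1806 in knockouts 1 to 4 (log2 difference 0.05, limma adjusted p = 0.823). Rpl39l, the testis form of the tunnel protein Rpl39, was near the detection limit, at 2.27 to 27.0 in controls and 5.49 to 24.4 in knockouts, with a log2 difference of 0.48 that was smaller than its standard error of 0.70. Rps4l had 496 ± 89.3 (SD, n = 4) and 534 ± 67.6 (SD, n = 4), and X-linked Rps4x had 23247 ± 1190 (SD, n = 4) and 23613 ± 685 (SD, n = 4). Rpl22, whose loss in mice impairs T cell development, had 6604 ± 382 (SD, n = 4) and 6961 ± 251 (SD, n = 4), and Rpsa, also known as the laminin receptor, had 22427 ± 1362 (SD, n = 4) and 24000 ± 1157 (SD, n = 4). Their log2 differences were 0.11 (Rps4l), 0.02 (Rps4x), 0.08 (Rpl22) and 0.10 (Rpsa). Per kilobase Rps27l stood at 3514 and Rps4l at 653, far below the members' median.

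The genes around the ribosomal proteins were described by lists. Of 9 measured relatives that the symbol rule left out, 0 passed the test (median log2 difference -0.01, 3 above 0). Rack1, the scaffold of the small subunit, was 1 of the 3 above 0 (0.05). Of 18 other TOP mRNAs 0 passed, with a median of 0.00 and with the elongation factor Eef1a1 as the most abundant (0.00). Of 15 genes of RNA polymerase I, which makes ribosomal RNA, 0 passed (median 0.02). Of 46 ribosome assembly factors 0 passed (median -0.04, 17 above 0), with nucleolin, Ncl, the most abundant (-0.14). Of 31 initiation and termination factors 0 passed (median -0.07, 7 above 0), with Eif4g2 the most abundant (-0.13). Of 13 quality control genes 0 passed (median 0.01), with Tcf25, of the complex that clears stalled nascent chains, the most abundant (-0.09).

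Calls were made in the lists of control and stress. Of 18 genes of mTORC1 and TOP translation control 1 rose and 0 fell, where 3.61% of all genes were called. It was Eif4ebp2, which encodes a repressor of cap-dependent initiation that mTORC1 inactivates, with 5259, 5451, 5413 and 5527 normalized counts in controls 1 to 4 and 6705, 6336, 6169 and 6551 in knockouts 1 to 4. The groups were well apart, with a log2 difference of 0.25 (SE 0.05, limma adjusted p = 0.0239). Of 12 genes of the ribosomal stress response 1 rose and 1 fell, against the same 3.61%, both sestrins, which restrain mTORC1. Nothing particular to either list is read from these counts. Sesn2 rose from 389 ± 25.2 (SD, n = 4) to 590 ± 18.0 (SD, n = 4), a log2 difference of 0.60 (SE 0.07, limma adjusted p = 0.00526). Sesn1 fell from 6170 ± 309 (SD, n = 4) to 4763 ± 172 (SD, n = 4), a log2 difference of -0.37 (SE 0.05, limma adjusted p = 0.00911).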

How the data were processed

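Poly(A)-selected RNA of 4 control and 4 knockout samples was analysed from the authors' deposited table of normalized counts, a signal per gene and sample with 0 other per-sample columns. FastQC, Salmon, cutadapt, DESeq2 and the build mm10 are named in the submitters' processing notes, without versions or order. Use of strand in counting: not given in the sources used here. A DESeq2 table, also deposited by the authors, holds, per the file headers, a log2 fold change with control as numerator, its standard error and statistic (score), p-values and the mean signal.

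Dividing each column by its smallest step gave whole reads for 100% of values within 0.01 reads. The smallest value of every column was 1 read, and the sources used here do not say whether 1 was added beforehand. No pair of libraries within a group was alike within counting noise (lowest chi-square per gene 8.86), and each counts as 1 replicate. As the source animals are not stated, p-values reflect spread between samples, which may be technical. Recovered depths per library are given as a range in the text.

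Limma (3.58.1, R 4.3.3) was fitted to log2(value + 1) of 15862 genes, those whose mean reached 10, with eBayes with trend, two-sided, Benjamini-Hochberg adjustment and a threshold of 0.05. Differences on this scale understate changes of low genes. Count models (edgeR 4.0.16, DESeq2 1.42.0) on recovered reads were alternatives. The limma script was tested on simulated data. Other alternatives were pseudocounts of 0.5 and 5, other filters, 3 scalings, no trend, a replicate block and each library left out; summing with copies was added after seeing the data.

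Shares are sums over members divided by the total of all named genes. Levels per kilobase used the principal transcript of GENCODE M21, and start sequences came from RefSeq (GRCm38.p6). Copies were found by shared 31-base words, among pseudogenes and rows with an Rpl or Rps symbol only. The members and lists were chosen with earlier results of these data known. Members named are the 10 with the smallest p, the 5 most and 5 least abundant and fixed paralogues and stalk proteins; from each list, those past the threshold and the most abundant. A member that this rule names is not reported here or drawn. Rps6, Rps29 and Rpl31 were named after their values were seen.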

Additional observations from a re-analysis of the deposited data

Results flagged for a closer look

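Of 66 groups of 4 libraries examined, 6 held a library whose gap to its nearest neighbour exceeded Dixon's 95% limit; chance gives this in about 5% of groups. Rplp1 stood at 30643 normalized counts in control 4, against 25106 to 25934 in the other controls. Rplp2 stood at 14267 in the same library, against 11422 to 11904. The retrogene Rps27rt was also high there, at 10322 against 8158 to 8374. Rps6-ps4 stood at 1593 normalized counts in control 2, against 1 read in each of the other controls. The ribosomal share was 2.84% in knockout 4, against 3.04% to 3.05% in the other knockouts. The ratio of large- to small-subunit counts was 1.4153 in control 1, against 1.4107 to 1.4109 in the other controls. The causes were not tested.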

How the results depend on the processing

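Over the main analysis and 20 other fits, 0 ribosomal proteins were called higher or lower in any. Single values under these alternatives were compared only for the 25 members that the naming rule picks. Of these 499 values, 475 kept their sign and 24 changed sign, 18 of them with 1 library left out. No value could cross the threshold, since no member was called in any fit. Over all 79 members, 11 had a lower knockout mean in the main fit. With each library scaled to the same total, with quantile normalization and with equal totals of other genes, 1 was lower in each. Rps2 became 0.050 and Rpl3 0.033 with equal totals, 0.12 and 0.036 with quantile normalization, and 0.053 and 0.036 with equal totals of other genes. With 1 library left out, the log2 difference ran from -0.052 to 0.0072 for Rpl3, -0.065 to 0.97 for Rpl39l, -0.048 to 0.077 for Rplp1, -0.044 to 0.080 for Rplp2, -0.043 to 0.061 for Rps2, -0.0014 to 0.12 for Rps27l, -0.0047 to 0.21 for Rps4l and -0.0065 to 0.049 for Rps4x.

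The members' median difference was 0.12 with quantile normalization (78 higher) and 0.11 with equal totals (78 higher), where the median of all genes was 0.06; with 1 library left out it ran from 0.03 to 0.08. The ribosomal share difference ran from 0.172 to 0.259 percentage points. Genes called over the whole table numbered 1557 with DESeq2, 292 without the trend and 163 to 502 with 1 library left out; the cause was not tested beyond fewer libraries in the last. With the replicate number as a block 7 genes and 0 members were called. Libraries with the same number did not deviate together over all genes (correlations of -0.20, -0.20, -0.04 and -0.29 for numbers 1 to 4). Over the members alone the correlations were -0.25, 0.68, -0.62 and -0.41. These values cannot decide whether the numbers pair the samples, since paired samples need not deviate together. The median standard error of 0.06 on the log2 scale limits what 4 against 4 libraries can show for a single member.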
